A study of Mus musculus with 6 samples.

Results

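The zinc finger genes described here are those of the deposited expression table whose symbol is Zfp followed by 3 digits, or begins with Zkscan or Zscan and a number, and whose mean level over the 6 libraries was at least 2 FPKM, a unit that scales read fragments to gene length and sequencing depth. Of 38926 genes in the table, 319 had such a symbol (291 Zfp, 11 Zkscan and 17 Zscan), and 164 reached the level (154 Zfp, 6 Zkscan and 4 Zscan). The level was averaged over both groups, so the choice used no difference between them. The libraries were made from LSK cells, the bone marrow fraction without lineage markers and with Sca-1 and c-Kit on its surface that holds blood stem cells and multipotent progenitors, sorted from C57BL/6 mice of 8 to 12 weeks. Haloperidol, a dopamine receptor blocker used against psychosis, was injected on 3 consecutive days for 3 of the libraries, and its vehicle DMSO for the other 3. Drug or vehicle was also present while the cells were sorted. The labels number the libraries 1 to 3 in each group and do not say that each came from its own mouse, so a p-value here weighs a difference against the scatter of these libraries only, which may be technical.

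Most of these genes encode DNA-binding proteins built from repeats of the classical zinc finger, a short loop in which cysteine and histidine residues hold a zinc ion. Many also carry a KRAB domain, which recruits the corepressor Trim28 and, through it, the histone methyltransferase Setdb1 and heterochromatin proteins to silence retroelements and other targets. A SCAN domain lets some of the proteins pair with each other, and most Zkscan proteins carry a SCAN and a KRAB domain while Zscan proteins carry a SCAN domain alone. Other members have few fingers or none of the classical kind and work on RNA or ribosomes. Many KRAB zinc finger genes lie in clusters of related copies.

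The members were lowly to moderately expressed. Their median level was 5.77 FPKM, with quartiles at 3.70 and 11.7 FPKM, against a median of 9.88 FPKM for all 11436 genes that were tested. Zfp706, which encodes a small protein with 1 finger, stood above the others at 135, 133 and 138 FPKM in haloperidol libraries 1, 2 and 3, and 132, 137 and 148 FPKM in DMSO libraries 1, 2 and 3. The next were Zfp422, Zfp330 and Zfp207, with means over the 6 libraries of 76.3, 54.4 and 40.9 FPKM. The members together took 0.594 to 0.619% of the reads in the haloperidol libraries and 0.601 to 0.609% in the DMSO libraries, ranges that overlap. The 2 members nearest the lower limit were Zfp446 at 2.16 FPKM and Zfp202 at 2.21 FPKM, and the 2 genes just below it were Zfp101 at 1.89 FPKM and Zfp709 at 1.83 FPKM. Of the 155 genes below it, 20 were listed at 0 in every library, 85 had a mean above 0 and under 1 FPKM, and 50 lay between 1 and 2 FPKM. The members' median coefficient of variation was 8.47% in haloperidol and 8.45% in DMSO, against 6.93% in haloperidol and 6.65% in DMSO over all tested genes of at least 2 FPKM, which were not matched to the members' lower level. The 90th percentile was 19.83% in haloperidol and 16.98% in DMSO for members, against 17.15% in haloperidol and 16.87% in DMSO for those genes.

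With haloperidol, 26 of the 164 members rose and 15 fell, and 123 did not pass the test (limma on log2(FPKM + 1), two-sided, Benjamini-Hochberg adjusted p below 0.05 over all tested genes). That is 25% of the members, and the background was close to it: 24.5% of all 11436 tested genes passed (11.5% higher and 13.0% lower), and 26.7% of the 10040 genes with at least 2 FPKM. The members' share was thus near that of other genes of their level. Sorted by level, 18.2% of the 66 members between 2 and 5 FPKM passed, against 15.9% of tested genes in that range. Between 5 and 15 FPKM it was 27.8% of 72 members against 25.2% of tested genes, and from 15 FPKM up 34.6% of 26 members against 33.2%. The median log2 fold change was 0.07 over the members and 0.00 over all tested genes, with 97 members above 0 and 67 below. The 2 groups of libraries did not overlap for 45 members that were higher and 30 that were lower with haloperidol, where the background was 43.1% of tested genes (21.0% higher and 22.1% lower), and 45.1% of those of at least 2 FPKM (21.9% higher and 23.2% lower). The counts depended on single libraries: without DMSO replicate 1, 16 members rose and 7 fell, and without DMSO replicate 2, 16 rose and 8 fell. They were 13 and 7 when every gene above 0 in any library was tested.

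**Figure D1:**
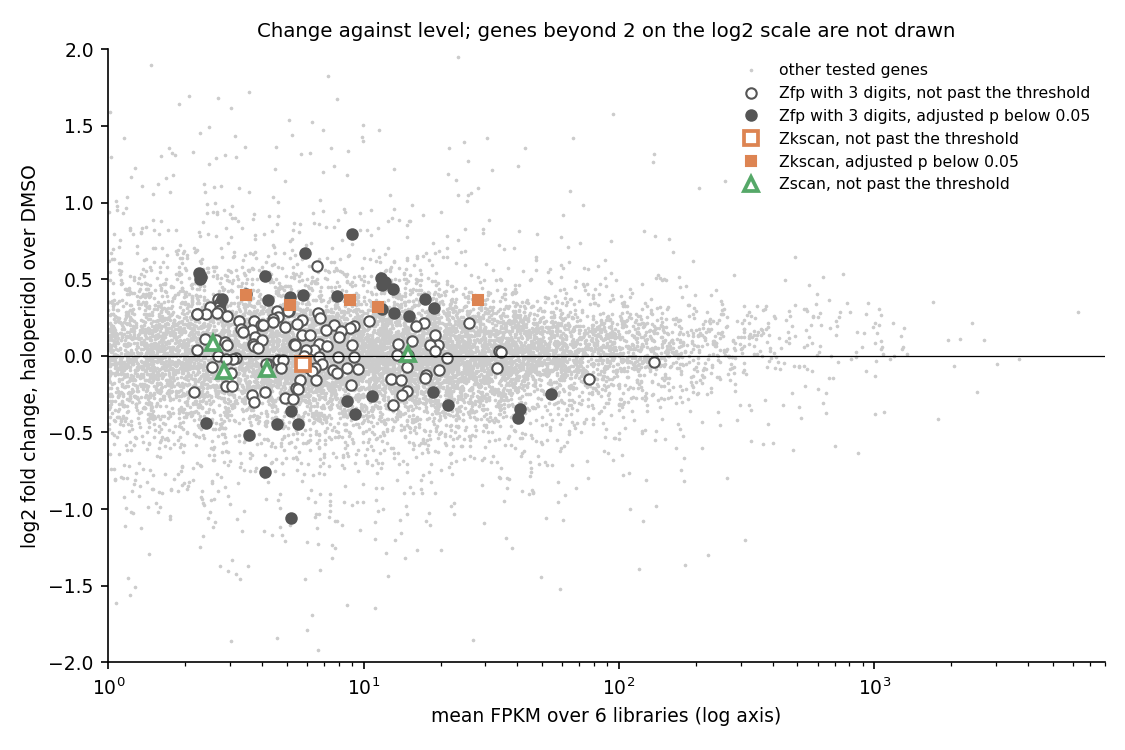
The plot shows each tested gene's mean level in FPKM (log axis) against its log2 fold change, haloperidol over DMSO, with members drawn by symbol stem and filled where the adjusted p was below 0.05. Members lie inside the cloud of other genes (grey), from a log2 fold change of -1.06 to 0.79, and 5 of 6 Zkscan squares are filled and above 0.

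Zfp580 showed the largest rise among the members. The gene, at chr7:5051538-5053723 on the plus strand (GRCm38), encodes a short protein with 3 fingers. It was at 13.0, 10.9 and 11.0 FPKM in the haloperidol libraries, against 6.31, 6.17 and 6.34 FPKM in the DMSO libraries, each in the order of replicates 1 to 3, as are all values by library that follow. The lowest haloperidol library thus lay far above the highest DMSO library, and the ratio of the means was 1.86 (log2 fold change 0.79, SE 0.08, adjusted p = 4.56e-04, limma with Benjamini-Hochberg adjustment, as for all adjusted p-values here). Zfp930, a KRAB gene with 12 fingers on chromosome 8, was at 7.64, 7.74 and 6.87 FPKM in the haloperidol libraries, against 3.73, 3.74 and 5.53 FPKM in the DMSO libraries (log2 fold change 0.67, SE 0.13, adjusted p = 0.00782). DMSO replicate 3 was the DMSO library nearest to the haloperidol ones. Zfp668, with 16 fingers and at chr7:127863047-127876828 on the minus strand, was at 4.14, 5.19 and 5.72 FPKM in the haloperidol libraries, against 3.18, 3.14 and 3.17 FPKM in the DMSO libraries (log2 fold change 0.52, SE 0.11, adjusted p = 0.0117). Here the DMSO libraries were nearly equal and the haloperidol libraries spread upward.

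Among members with a known role, Zfp281 rose. It encodes a transcription factor that regulates pluripotency genes in mouse embryonic stem cells and lies at chr1:136624901-136630053 on the plus strand. It was at 13.4, 13.9 and 14.4 FPKM in the haloperidol libraries, against 9.29, 10.2 and 9.86 FPKM in the DMSO libraries, with tight groups far apart (log2 fold change 0.46, SE 0.07, adjusted p = 0.00192). Zfp106, whose product binds RNA and is needed in mouse motor neurons, was at 8.87, 9.38 and 8.87 FPKM in the haloperidol libraries, against 6.52, 6.84 and 6.64 FPKM in the DMSO libraries (log2 fold change 0.39, SE 0.07, adjusted p = 0.00493), though 26.1% of its exonic bases are shared with another gene and the reads carry no strand. Zfp191, a SCAN gene needed for myelination in mice, was at 19.6, 19.9 and 19.7 FPKM in the haloperidol libraries, against 14.0, 14.6 and 16.7 FPKM in the DMSO libraries (log2 fold change 0.37, SE 0.07, adjusted p = 0.00817). In both genes every haloperidol library was above every DMSO library. Zfp523, a close relative of the promoter-binding factor gene Zfp143, averaged 16.6 ± 0.484 FPKM in haloperidol and 13.7 ± 0.294 FPKM in DMSO (SD, n = 3 each, log2 fold change 0.26, SE 0.06, adjusted p = 0.0139), and leaving out DMSO replicate 2 ended its call (adjusted p = 0.0525 from limma). Zfp143 itself averaged 6.24 ± 0.987 FPKM in haloperidol and 6.62 ± 0.376 FPKM in DMSO and did not pass (adjusted p = 0.612, limma).

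Rises that held under each of the 15 other settings and left-out libraries that were run were those of 10 members: Zfp580, Zfp930, Zfp668, Zfp433, Zfp281, Zfp106, Zfp191, Zkscan14, Zfp639 and Zfp362. Zfp433 averaged 13.9 ± 1.10 FPKM in haloperidol and 9.47 ± 0.759 FPKM in DMSO (SD, n = 3 each), but 94.1% of its 50-base fragments also occur in transcripts of Gm32687, so its reads cannot be assigned with certainty. Zfp639 averaged 21.0 ± 0.728 FPKM in haloperidol and 16.7 ± 0.685 FPKM in DMSO, and Zfp362 14.5 ± 0.583 FPKM in haloperidol and 11.8 ± 0.482 FPKM in DMSO, so that both rose by about the same step on the log2 scale (0.31 and 0.28). The calls of Zfp574, which rose by 0.30, and Zfp963, which rose by 0.37, ended without 4 and 5 of the 6 libraries in turn, and so did that of Zfp637, which fell by 0.26, without 5. Their adjusted p then reached 0.0921, 0.0846 and 0.0908 (limma).

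The other members among the 12 largest rises were low in level or lost the call under some settings. Zfp777, a KRAB gene, was at 16.0, 13.3 and 13.5 FPKM in the haloperidol libraries, against 11.5, 10.1 and 8.31 FPKM in the DMSO libraries, with adjusted p = 0.0185 in limma and 0.0636 without haloperidol replicate 1. Zfp787 averaged 15.2 ± 1.84 FPKM in haloperidol and 10.9 ± 0.967 FPKM in DMSO (SD, n = 3 each), with an adjusted p = 0.0144 that became 0.0518 without DMSO replicate 1 and 0.0507 without DMSO replicate 3 (limma). In both genes the groups did not overlap. Zfp865 (mean 2.31 FPKM over the 6 libraries, log2 fold change 0.51), Zfp763 (2.28 FPKM, 0.50), Zfp408 (2.26 FPKM, 0.54) and Zfp688 (3.45 FPKM, 0.40) completed the list with Zkscan5. Their calls ended without 3, 4, 5 and 5 of the 6 libraries in turn, and the adjusted p then reached 0.0848 for Zfp865, 0.0687 for Zfp763 and 0.132 for Zfp408 without haloperidol replicate 1, and 0.118 for Zfp688 without DMSO replicate 2 (limma). Zfp408, whose human counterpart is mutated in an inherited disease of retinal vessels, was at 3.25, 2.97 and 2.32 FPKM in the haloperidol libraries, against 1.87, 2.01 and 1.11 FPKM in the DMSO libraries, so its lowest haloperidol library was close to its highest DMSO library.

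**Figure D2:**
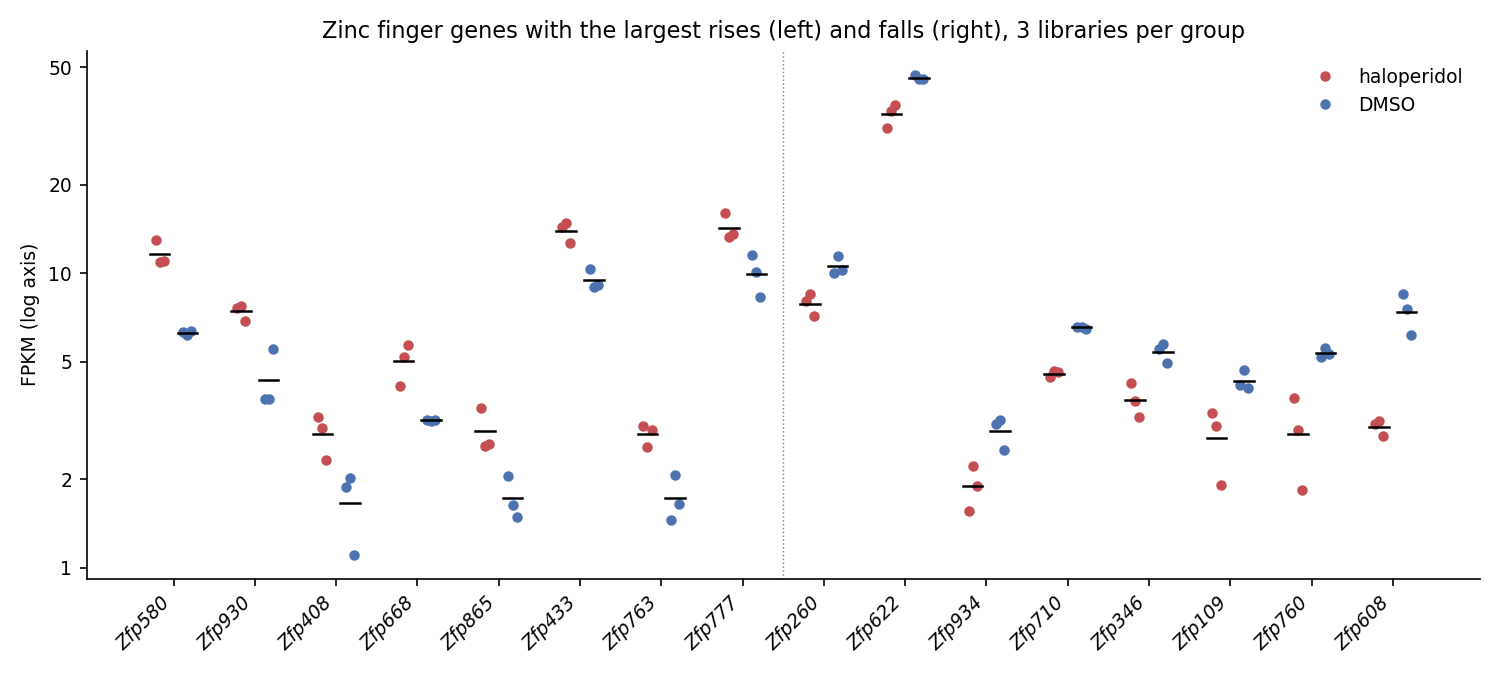
The plot gives the FPKM (log axis) of 8 members that rose and 8 that fell, those with the largest change among members that passed the test and whose groups did not overlap, with 1 dot per library, haloperidol left of DMSO, and a bar at the mean of 3 libraries. The separation of the groups was fixed by that choice, and Zfp146, with a log2 fold change of 0.59 and overlapping groups, is not drawn.

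Zfp608 showed the largest fall. The gene encodes a protein with 1 classical finger that was reported to repress the recombination genes Rag1 and Rag2 in mouse thymocytes. It was at 3.08, 3.15 and 2.81 FPKM in the haloperidol libraries, against 8.49, 7.55 and 6.17 FPKM in the DMSO libraries, a ratio of 0.407 (log2 fold change -1.06, SE 0.11, adjusted p = 5.54e-04, limma). The haloperidol libraries were close together, and even the lowest DMSO library, replicate 3, was well above them. The B cell markers Ighm, Cd79a and Cd79b also fell in the same libraries. Ighm averaged 102 ± 12.3 FPKM in haloperidol and 262 ± 18.7 FPKM in DMSO, and Cd79b 22.8 ± 1.24 FPKM in haloperidol and 32.2 ± 1.12 FPKM in DMSO (SD, n = 3 each), while Ms4a1 and Pax5 were at or near 0 in both groups. The part of such cells in the fall of Zfp608 was not tested, and in bulk libraries fewer cells of a type and less RNA per cell cannot be told apart.

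Among the falls were those of Zfp622, Zfp593 and Zfp330, whose products work in ribosome assembly or reside in the nucleolus. Zfp622, a factor in the last steps of building the large ribosomal subunit, was at 31.0, 35.6 and 37.3 FPKM in the haloperidol libraries, against 47.2, 45.6 and 45.6 FPKM in the DMSO libraries (log2 fold change -0.41, SE 0.07, adjusted p = 0.00479). It lies at chr15:25984366-25998481 on the plus strand, and the haloperidol libraries, though spread, all lay below the narrow DMSO group. Zfp593, which also acts in ribosome assembly, was at 7.07, 8.13 and 7.63 FPKM in the haloperidol libraries, against 9.77, 9.43 and 9.40 FPKM in the DMSO libraries (log2 fold change -0.29, SE 0.07, adjusted p = 0.0218), but 77.9% of its exonic bases overlap E130218I03Rik and its call ended without haloperidol replicate 1 (adjusted p = 0.0719) or any 1 of the 3 DMSO libraries (adjusted p = 0.0534 to 0.0656, limma). Zfp330, a nucleolar protein gene, averaged 49.6 ± 2.40 FPKM in haloperidol and 59.2 ± 6.05 FPKM in DMSO (SD, n = 3 each, adjusted p = 0.0460, limma). That call ended without any 1 of the libraries except DMSO replicate 2, with an adjusted p of up to 0.132 without haloperidol replicate 2.

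Zfp207, known as BuGZ and needed to align chromosomes on the mitotic spindle, was at 36.8, 35.8 and 35.1 FPKM in the haloperidol libraries, against 45.2, 47.5 and 45.2 FPKM in the DMSO libraries (log2 fold change -0.35, SE 0.05, adjusted p = 0.00197, limma). At 2082 to 2749 reads per library it was the best covered of the members that passed, and the groups were far apart. Zfp410, whose known task is to activate the chromatin remodeller gene Chd4, was at 18.2, 18.8 and 19.8 FPKM in the haloperidol libraries, against 25.1, 23.1 and 23.4 FPKM in the DMSO libraries (log2 fold change -0.32, SE 0.06, adjusted p = 0.00728). Chd4 itself averaged 11.5 ± 1.31 FPKM in haloperidol and 12.5 ± 1.99 FPKM in DMSO (SD, n = 3 each) and did not pass (adjusted p = 0.543, limma). Zfp346, which binds double-stranded RNA, was at 4.23, 3.69 and 3.25 FPKM in the haloperidol libraries, against 5.53, 5.76 and 4.94 FPKM in the DMSO libraries (log2 fold change -0.44, SE 0.10, adjusted p = 0.0171). Every haloperidol library of Zfp346 was below every DMSO library, yet the call ended without DMSO replicate 1 (adjusted p = 0.0535) or DMSO replicate 2 (0.0652, limma).

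Zfp710 was even within both groups, at 4.43, 4.64 and 4.60 FPKM in the haloperidol libraries, against 6.58, 6.57 and 6.49 FPKM in the DMSO libraries (log2 fold change -0.44, SE 0.07, adjusted p = 0.00385, limma), at chr7:80024814-80094173 on the plus strand. Zfp760, a KRAB gene of chromosome 17, had the second largest fall among the members, at 3.76, 2.94 and 1.84 FPKM in the haloperidol libraries, against 5.20, 5.55 and 5.32 FPKM in the DMSO libraries (log2 fold change -0.76, SE 0.17, adjusted p = 0.0141). Its DMSO libraries were close and its haloperidol libraries stepped apart, with replicate 3 lowest, and its call ended with no filter on low genes (adjusted p = 0.0593, limma). Zfp260, a partner of Gata4 in mouse heart cells, averaged 7.88 ± 0.682 FPKM in haloperidol and 10.6 ± 0.777 FPKM in DMSO, and its call ended without DMSO replicate 2 (adjusted p = 0.0557, limma). Zfp467, which steers marrow stromal progenitors of mice between the fat and bone fates, averaged 4.42 ± 0.458 FPKM in haloperidol and 5.94 ± 0.429 FPKM in DMSO, and its call ended without haloperidol replicate 2 or 3 or DMSO replicate 1 or 2 (adjusted p = 0.0619 to 0.0978, limma). The KRAB genes Zfp109 (2.77 ± 0.758 FPKM in haloperidol and 4.31 ± 0.339 FPKM in DMSO) and Zfp934 (1.89 ± 0.332 FPKM in haloperidol and 2.92 ± 0.362 FPKM in DMSO) were low in level. The call of Zfp109 ended without 5 of the 6 libraries in turn and that of Zfp934 without 4, with an adjusted p of up to 0.121 and 0.123 without DMSO replicate 2 (limma). For Zfp934, 40.1% of its 50-base fragments occur in other genes. Falls that held under all 15 other settings were those of 5 members: Zfp608, Zfp710, Zfp622, Zfp207 and Zfp410.

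**Figure D3:**
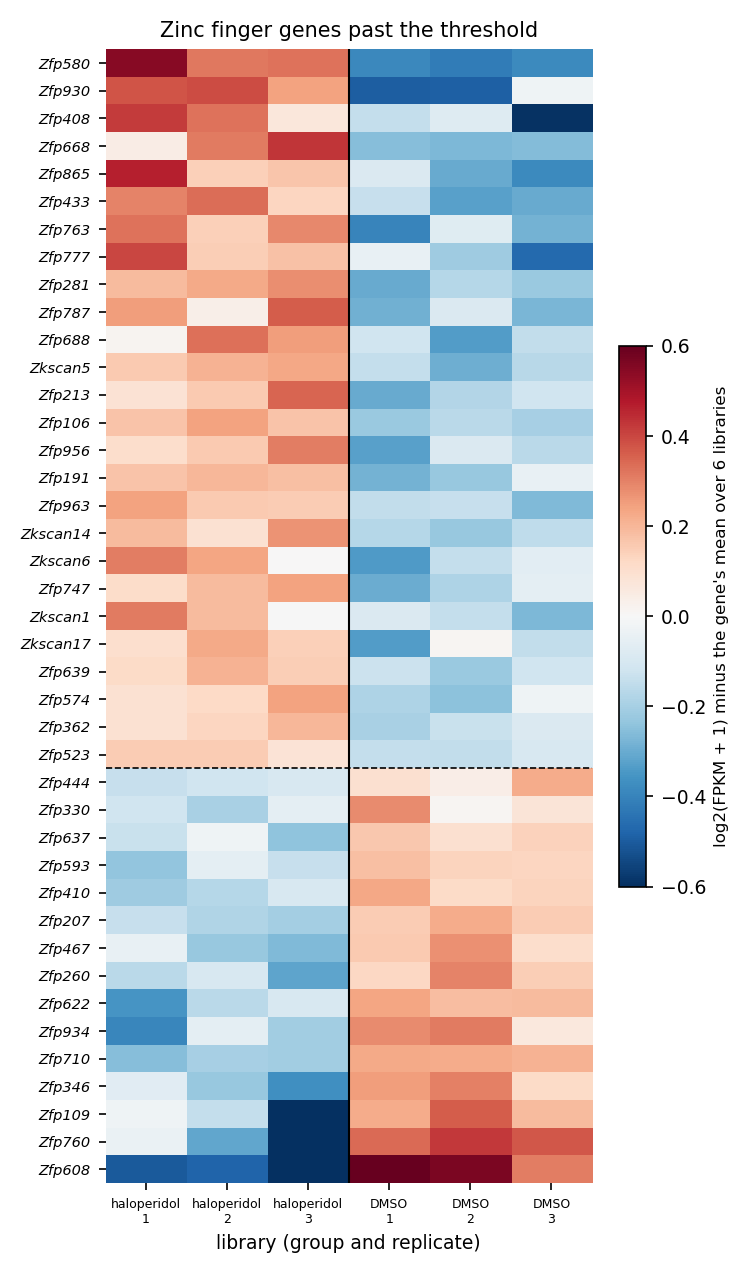
The heat map shows the 41 members past the threshold, 26 that rose above the dashed line and 15 that fell below it, in the 6 libraries, haloperidol on the left. Colour is log2(FPKM + 1) minus the gene's mean over the 6 libraries, values past the ends of the colour bar take its end colour, and the strongest contrasts between the groups are those of Zfp580 at the top and Zfp608 at the bottom.

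Promoter sequences are shown for 4 members that passed under every setting and share few fragments with other genes, 2 that rose and 2 that fell. They run from 250 bases before to 50 bases after the gene's start (RefSeq, GRCm38.p6), 5′ to 3′ on the gene's strand. Capitals mark matches, on either strand, to 4 core promoter motifs: the GC box GGGCGG, the ETS core CCGGAAG, the CCAAT box CCAAT and the TATA box TATAAA. Zfp580 lies at chr7:5051282-5051581 (plus strand) and held no match, Zfp668 at chr7:127876787-127877086 (minus strand) held an ETS core, Zfp710 at chr7:80024564-80024863 (plus strand) a CCAAT box and Zfp622 at chr15:25984116-25984415 (plus strand) a GC box.
Zfp580: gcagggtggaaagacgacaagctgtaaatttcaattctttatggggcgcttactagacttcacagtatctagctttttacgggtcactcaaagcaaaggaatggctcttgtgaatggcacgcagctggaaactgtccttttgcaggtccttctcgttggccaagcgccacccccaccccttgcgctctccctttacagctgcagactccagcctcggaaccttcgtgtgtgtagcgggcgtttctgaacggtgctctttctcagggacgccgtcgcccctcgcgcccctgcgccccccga
Zfp668: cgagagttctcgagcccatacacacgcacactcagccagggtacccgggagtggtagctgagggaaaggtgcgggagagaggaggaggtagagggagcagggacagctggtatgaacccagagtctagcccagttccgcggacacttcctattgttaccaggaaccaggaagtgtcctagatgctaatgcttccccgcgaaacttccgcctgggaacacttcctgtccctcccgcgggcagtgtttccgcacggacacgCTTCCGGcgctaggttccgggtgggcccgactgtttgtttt
Zfp710: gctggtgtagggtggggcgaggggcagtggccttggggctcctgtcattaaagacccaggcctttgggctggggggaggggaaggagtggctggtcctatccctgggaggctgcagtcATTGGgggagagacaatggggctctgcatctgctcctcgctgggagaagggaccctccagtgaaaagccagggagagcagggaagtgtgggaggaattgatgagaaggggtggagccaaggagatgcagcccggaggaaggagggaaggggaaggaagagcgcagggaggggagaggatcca
Zfp622: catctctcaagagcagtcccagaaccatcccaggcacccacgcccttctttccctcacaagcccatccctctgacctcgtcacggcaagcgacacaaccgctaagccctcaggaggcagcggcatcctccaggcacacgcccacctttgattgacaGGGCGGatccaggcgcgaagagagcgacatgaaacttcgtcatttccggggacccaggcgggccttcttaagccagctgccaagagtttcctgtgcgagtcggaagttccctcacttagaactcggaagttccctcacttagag

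A promoter was listed for 137 of the 164 members. Of these, 54.0% held a GC box, against 65.8% of 8099 promoters of tested genes and 35.9% of all 27025 listed promoters. The ETS core was in 23.4% of the members' promoters, 20% of those of tested genes and 9.12% of all. A CCAAT box was in 46.7%, 39.9% and 37.9% in the same order, and a TATA box in 4.38%, 6.69% and 14.2%. Among the 19 members that rose and had a promoter, 6 held the ETS core, and among the 11 that fell, 1 did. The GC box was in 10 of those that rose and 6 of those that fell, the CCAAT box in 10 and 4, and the TATA box in 0 and 0. These shares and counts describe the windows, and no difference between them was tested.

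The stems differed in their counts. Of the 6 Zkscan members 5 rose and 0 fell, of the 4 Zscan members 0 rose and 0 fell, and of the 154 Zfp members 21 rose and 15 fell. These are 83.3%, 0% and 23.4% of the members of each stem. Of all tested genes, not matched for level, 24.5% passed (11.5% higher and 13.0% lower), so the Zfp share was near the background. The median log2 fold change was 0.35 for Zkscan, -0.04 for Zscan and 0.07 for Zfp. No test was made between stems, since their genes are not replicates of a condition. Beside them, 1 rose and 2 fell of 20 Zbtb genes of the same level, which join a BTB domain to zinc fingers. Of 18 Klf and Sp genes, 4 rose and 2 fell, and of 22 Zfp genes with 1 or 2 digits, 5 rose and 0 fell. The shares that passed were 15% for Zbtb, 33.3% for Klf and Sp and 22.7% for Zfp with 1 or 2 digits.

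Zkscan14 and Zkscan5 are neighbours on chromosome 5, head to head on opposite strands, with their starts 2694 bases apart. Zkscan14, at chr5:145194946-145201868, was at 31.8, 29.6 and 33.7 FPKM in the haloperidol libraries, against 24.6, 23.6 and 24.9 FPKM in the DMSO libraries (log2 fold change 0.37, SE 0.06, adjusted p = 0.00408, limma). Zkscan5, at chr5:145204562-145221750, was at 3.93, 4.10 and 4.18 FPKM in the haloperidol libraries, against 3.00, 2.60 and 2.94 FPKM in the DMSO libraries (log2 fold change 0.40, SE 0.09, adjusted p = 0.0157). Both pairs of groups were apart, and the mean level over the 6 libraries was 28.0 FPKM for Zkscan14 and 3.46 FPKM for Zkscan5. The call of Zkscan5 ended without DMSO replicate 2 (adjusted p = 0.0595, limma).

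The other 3 Zkscan rises rested on groups that lay closer. Zkscan6 was at 11.0, 10.4 and 8.71 FPKM in the haloperidol libraries, against 6.67, 7.77 and 8.28 FPKM in the DMSO libraries (adjusted p = 0.0365, limma). Zkscan17, also called Nizp1, a corepressor that binds the histone methyltransferase Nsd1, was at 12.1, 13.3 and 12.5 FPKM in the haloperidol libraries, against 8.68, 11.3 and 10.04 FPKM in the DMSO libraries (adjusted p = 0.0408, limma). Zkscan1 was at 6.56, 5.93 and 5.07 FPKM in the haloperidol libraries, against 4.73, 4.52 and 4.04 FPKM in the DMSO libraries (adjusted p = 0.0486, limma). In each of the 3 the lowest haloperidol library was just above the highest DMSO library. Their calls ended without 4 of the 6 libraries in turn for Zkscan6, with an adjusted p of 0.0782 to 0.115, and without 5 of the 6 for Zkscan17 and Zkscan1, with 0.0732 to 0.119 and 0.0708 to 0.147 (limma). Counted over the stem, 2 of 6 passed without haloperidol replicate 1, haloperidol replicate 2, DMSO replicate 1 or DMSO replicate 2, 4 without haloperidol replicate 3 and 3 without DMSO replicate 3. The count was also 2 with each library rescaled to a common sum and with no filter on low genes. The log2 fold change stayed above 0 for 5 or 6 of the 6 in every setting run. Zkscan3, a repressor of autophagy genes in human cells, was the sixth, at 5.13, 5.61 and 6.23 FPKM in the haloperidol libraries, against 6.64, 5.01 and 6.11 FPKM in the DMSO libraries (log2 fold change -0.05, adjusted p = 0.768, limma), with overlapping groups.

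None of the 4 Zscan members passed, and their groups overlapped. Zscan21 was the most expressed of them, at 16.0, 14.98 and 13.9 FPKM in the haloperidol libraries, against 14.9, 13.6 and 16.2 FPKM in the DMSO libraries (log2 fold change 0.01, adjusted p = 0.948, limma). Zscan12 averaged 2.69 ± 0.568 FPKM in haloperidol and 2.46 ± 0.180 FPKM in DMSO, Zscan22 4.04 ± 0.649 FPKM in haloperidol and 4.32 ± 0.373 FPKM in DMSO and Zscan29 2.73 ± 0.580 FPKM in haloperidol and 2.97 ± 0.159 FPKM in DMSO (SD, n = 3 each). Their log2 fold changes were 0.08, -0.08 and -0.10, each no larger than its SE of 0.13, 0.12 and 0.13. The sign of all 4 turned when single libraries were left out, without haloperidol replicate 1 for Zscan12 (-0.04), Zscan21 (-0.04) and Zscan29 (0.02), without DMSO replicate 2 for Zscan21 (-0.05) and without haloperidol replicate 2 for Zscan22 (0.02).

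**Figure D4:**
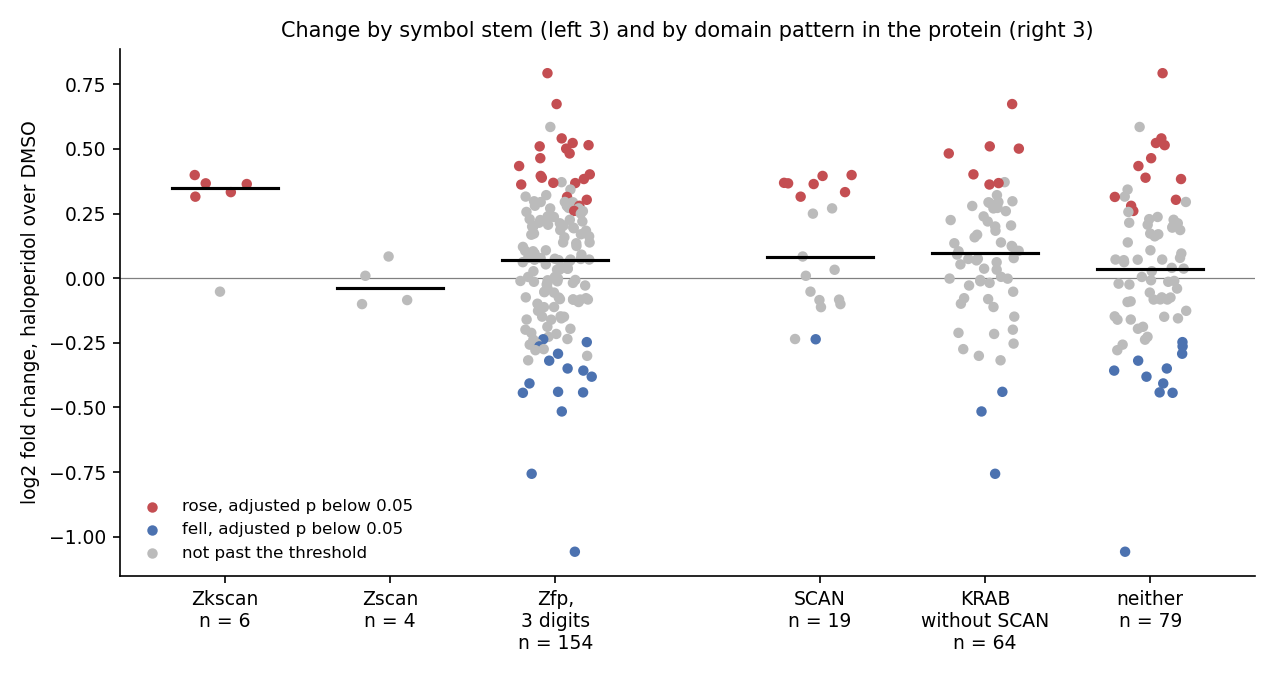
Each dot is a member's log2 fold change, haloperidol over DMSO, by symbol stem (left 3 columns) and by domain pattern in its protein (right 3), red where it rose and blue where it fell past the threshold, with a bar at the median. The Zkscan median is 0.35, while the medians of the SCAN, KRAB and neither columns are 0.08, 0.10 and 0.04.

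Grouped by residue patterns for these domains in the translated GENCODE proteins, 19 members matched SCAN, 64 matched KRAB without SCAN and 79 matched neither. The KRAB pattern found none of the Zkscan proteins, so the SCAN group was not divided further. The 79 members that matched neither may likewise include KRAB proteins that the pattern missed. Of the KRAB members 7 rose and 3 fell, of the SCAN members 7 rose and 1 fell, and of the members that matched neither 12 rose and 11 fell. These are 15.6%, 42.1% and 29.1% of the members in each group, beside the background of 24.5%. That background was not matched for level: 15.9% of tested genes passed between 2 and 5 FPKM and 33.2% from 15 FPKM up. Of the 7 SCAN members that rose, 5 were the Zkscan genes, and among the 9 SCAN members of the Zfp stem 2 rose (Zfp191 and Zfp213) and 1 fell (Zfp444). The calls of Zfp213 and Zfp444 ended without 3 and 5 of the 6 libraries in turn, with an adjusted p of up to 0.0639 and 0.0876 (limma). With each library left out in turn, the counts were 3 to 5 rises and 1 to 3 falls for KRAB, 3 to 6 rises and 0 to 1 falls for SCAN, and 8 to 11 rises and 6 to 9 falls for neither. The 2 remaining members, Zfp125 and Zfp783, are pseudogenes in GENCODE, and neither passed.

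The proteins had 0 to 27 classical fingers, with a median of 9. Zfp521, a regulator of blood progenitors also known as Evi3, had 27 and was at 4.29, 4.66 and 3.18 FPKM in the haloperidol libraries, against 4.19, 4.94 and 3.55 FPKM in the DMSO libraries (adjusted p = 0.809, limma). Of the 35 members with 0 to 4 fingers 6 rose and 7 fell, of the 60 with 5 to 9 fingers 12 rose and 2 fell, and of the 67 with 10 or more 8 rose and 6 fell. These are 37.1%, 23.3% and 20.9% of the members in each range, where 24.5% of all tested genes passed (11.5% higher and 13.0% lower). That background was not matched to the level of the members in each range. With single libraries left out, these were 4 to 5 rises and 3 to 5 falls, 6 to 9 rises and 1 to 2 falls, and 4 to 8 rises and 2 to 6 falls. Among the members with 0 to 4 fingers described above, those that fell included Zfp622, Zfp593, Zfp207, Zfp608, Zfp330 and Zfp444. In the same range Zfp580, Zfp281, Zfp106, Zfp191, Zfp688 and Zkscan17 rose.

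Members were unevenly placed in the genome. Chromosome 7 held 40 of them, of which 7 rose and 4 fell, and chromosome 17 held 18, of which 3 rose and 1 fell. Chromosomes 5, 6 and 8 held 13 each, with 3, 2 and 2 rises and 0, 2 and 1 falls. Chromosome 13 held 12 (0 rose and 2 fell) and chromosome 9 held 11 (0 rose and 0 fell). The shares that passed were 27.5% and 22.2% for chromosomes 7 and 17, and 23.1%, 30.8% and 23.1% for chromosomes 5, 6 and 8. They were 16.7% and 0% for chromosomes 13 and 9. Of all tested genes, not matched for level, 24.5% passed (11.5% higher and 13.0% lower). Of the 98 members within 200 kb of another gene with a matching symbol, 19 rose and 8 fell, with a median log2 fold change of 0.11, and of the 66 farther away 7 rose and 7 fell, with a median of -0.02. These are 27.6% of the near members (19.4% higher and 8.16% lower) and 21.2% of those farther away (10.6% each way). Both shares that passed were near the 24.5% of all tested genes. With each library left out in turn the counts were 11 to 14 rises and 2 to 5 falls near such a gene, and 4 to 8 rises and 5 to 7 falls farther away. The longest run, at chr7:127233061-127615797, held 8 members, of which Zfp747 and Zfp688 rose and 7 had a log2 fold change above 0. A run of 6 at chr6:47877204-48086593 held Zfp956 and Zfp777, which rose. A run of 5 at chr7:4983483-5053723 held Zfp865 and Zfp580, which rose. The calls of Zfp747 and Zfp956 each ended without 4 of the 6 libraries in turn, with an adjusted p of up to 0.0750 and 0.0702 (limma). Neighbouring copies can share reads: 22 members had over 10% of their 50-base fragments in transcripts of other genes, among them 5 that passed (Zfp433, Zfp963, Zfp934, Zfp747 and Zfp865), and 10 had over 20% of their exonic bases overlapped by another gene, among them 5 that passed (Zfp593, Zfp213, Zfp963, Zfp865 and Zfp106). The levels of these genes are uncertain.

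Several members with well-known roles did not pass. Zfp809, which recognises the primer binding site of murine leukaemia virus and silences it in embryonic cells, was at 14.6, 14.0 and 11.8 FPKM in the haloperidol libraries, against 15.2, 11.2 and 14.0 FPKM in the DMSO libraries (log2 fold change 0.00, adjusted p = 0.982, limma), with wide and overlapping groups. Zfp445, which protects imprinted regions in mice, was at 7.89, 8.93 and 5.46 FPKM in the haloperidol libraries, against 5.11, 6.49 and 6.40 FPKM in the DMSO libraries (adjusted p = 0.286, limma), where haloperidol replicate 3 lay among the DMSO libraries. Without that library its log2 fold change was 0.43 and it passed (adjusted p = 0.0409, limma). Zfp598, a ubiquitin ligase that acts on collided ribosomes, averaged 6.28 ± 0.729 FPKM in haloperidol and 5.19 ± 0.820 FPKM in DMSO (SD, n = 3 each). Zfp384, whose human counterpart is fused to other genes in acute leukaemia, averaged 7.39 ± 0.468 FPKM in haloperidol and 7.04 ± 0.467 FPKM in DMSO. Both had overlapping groups.

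Zfp148, a factor also called ZBP-89, averaged 13.6 ± 1.31 FPKM in haloperidol and 16.0 ± 0.134 FPKM in DMSO (SD, n = 3 each), with groups that did not overlap but an adjusted p = 0.0597 (limma). It passed in 2 of 15 alternatives, without haloperidol replicate 1 (adjusted p = 0.0409) and with limma voom (0.0128). The abundant Zfp422 averaged 72.3 ± 2.86 FPKM in haloperidol and 80.3 ± 3.26 FPKM in DMSO (adjusted p = 0.0727, limma), also without overlap, and passed with limma voom alone (adjusted p = 0.0459). Zfp335, needed for T cell development in mice, averaged 3.24 ± 0.429 FPKM in haloperidol and 4.06 ± 0.477 FPKM in DMSO (adjusted p = 0.140, limma). The remaining members set apart by role, Zfp131, Zfp263, Zfp292 and Zfp219, had log2 fold changes between -0.07 and 0.07 and overlapping groups. Zfp217, Zfp318, Zfp407, Zfp423, Zfp568, Zfp609, Zfp703 and Zfp711 were under 2 FPKM.

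The partners of KRAB proteins were looked at beside the members. Of 34 measured genes for corepressor subunits and heterochromatin proteins, 2 rose and 2 fell, with a median log2 fold change of 0.05 (0 to 2 rises and 0 to 2 falls with single libraries left out, and 5 of each with limma voom on the recovered reads). That is 11.8% of them, where the background, not matched for level, was 24.5% of all tested genes, with a median of 0.00. Cbx3, a heterochromatin protein gene, rose to 11.5 ± 0.339 FPKM in haloperidol, against 8.92 ± 0.815 FPKM in DMSO (SD, n = 3 each, adjusted p = 0.0162, limma). Hdac1, a histone deacetylase gene, fell to 54.5 ± 1.31 FPKM in haloperidol, against 62.1 ± 0.671 FPKM in DMSO (adjusted p = 0.0211, limma). Gatad2a, a subunit of the nucleosome remodelling and deacetylase complex, rose (adjusted p = 0.0467) and Atf7ip, a partner of Setdb1, fell (adjusted p = 0.0495), both close to the threshold in limma. Trim28, the corepressor that KRAB domains bind, was at 59.2, 58.0 and 59.5 FPKM in the haloperidol libraries, against 58.1, 51.7 and 41.9 FPKM in the DMSO libraries (adjusted p = 0.140, limma). The haloperidol libraries of Trim28 were nearly equal, and DMSO replicate 3 was the lowest library. Setdb1 averaged 5.33 ± 0.685 FPKM in haloperidol and 6.57 ± 0.478 FPKM in DMSO (adjusted p = 0.0928, limma), and its groups did not overlap. Of 7 zinc finger genes outside the rule that act at imprinted regions or retroelements, Ctcf and Zbtb24 were tested and neither passed.

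The libraries held 8523556, 8743742 and 8871108 reads on genes in haloperidol and 8821258, 8621593 and 8969024 in DMSO, recovered from the deposited values. A gene with 0 reads could thus have up to 0.334 to 0.352 CPM, a limit that covers counting error only. Of the gate's genes, Kit averaged 81.0 ± 9.78 FPKM in haloperidol and 87.8 ± 7.38 FPKM in DMSO and Ly6a 138 ± 10.5 FPKM in haloperidol and 136 ± 10.2 FPKM in DMSO (SD, n = 3 each), and neither passed. Over 10 genes of the gate and its progenitors 1 rose (Flt3, a call that ended without any 1 of the libraries) and 6 fell (4 to 6 with single libraries left out), and their summed level was 1224 to 1264 FPKM in haloperidol and 1375 to 1436 FPKM in DMSO. Markers of T cells were low, at 3.96 to 7.29 FPKM in sum in haloperidol and 3.18 to 5.80 FPKM in DMSO, mostly from Trac (3.29 ± 2.102 FPKM in haloperidol and 3.08 ± 1.32 FPKM in DMSO) and Cd4 (1.51 ± 0.238 FPKM in haloperidol and 1.203 ± 0.215 FPKM in DMSO), with Cd8a at 0. Neutrophil and monocyte markers (174 to 285 FPKM against 158 to 262 FPKM) and endothelial and stromal markers (31.2 to 34.1 FPKM against 30.5 to 36.8 FPKM) overlapped between haloperidol and DMSO in their sums, as did mature erythroid genes, which were abundant at 4161 to 5496 FPKM in haloperidol and 3593 to 4762 FPKM in DMSO. Of the 4 endothelial and stromal markers that were tested, 0 rose and 1 fell. This was Emcn, at 3.83 ± 0.276 FPKM in haloperidol and 4.92 ± 0.0600 FPKM in DMSO (adjusted p = 0.0360, limma). Lepr was higher, at 1.79 ± 0.233 FPKM in haloperidol and 1.13 ± 0.242 FPKM in DMSO, without overlap. It did not pass (adjusted p = 0.0766, limma). The part of shifts in any of these cell types in the members' changes was not tested.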

How the data were processed

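The authors deposited FPKM values for the 6 libraries in 1 table. Per the labels' protocols, SMART-Seq and Nextera kits were used, so reads carry no strand. The submitters' processing notes list, with no order given, DESeq2 1.18.1, HTSeq 0.6.1, TopHat2 2.1.1 and the build mm10. Which annotation release was counted is not given in the sources used here. Values were whole multiples of 1 read for 100.0% of genes above 0 (within 0.001 reads), scaled by median-of-ratios size factors.

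Genes with a mean of at least 1 FPKM were fitted as log2(FPKM + 1) by limma 3.58.1 (R 4.3.3, trended prior variance, two-sided, Benjamini-Hochberg, threshold 0.05). Fold changes are on that scale and understate those of low genes. Positions, proteins, exons and 50-base fragments came from GENCODE M21 (GRCm38), in which all 164 members matched, 3 through an older symbol. Members, lists and named genes were chosen with earlier results of these data known: the 12 largest rises and falls past the threshold without overlap, the 4 most abundant members, all Zkscan and Zscan, genes of known role, and for each gene list those with the smallest p. Further members were named after their values were seen. Domain patterns, finger and level ranges, the 200 kb distance, the motifs and the promoters shown were also settled with results in view, after stricter domain patterns and other motifs had been tried. Other scalings, pseudocounts, filters, a replicate block, left-out libraries and limma voom on the recovered reads were tried. A further B cell marker is not reported here.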

Additional observations from a re-analysis of the deposited data

How the results depend on the processing

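The 26 rises and 15 falls among members came to 13 and 7 with no filter on low genes, where rises over all genes came to 848 in place of 1320. With single libraries left out, members had 16 to 20 rises (16 without DMSO replicate 1 or 2) and 7 to 12 falls (7 without DMSO replicate 1, 8 without DMSO replicate 2). Over all genes there were then 815 to 957 rises (815 without DMSO replicate 2, 869 without haloperidol replicate 1) and 1006 to 1220 falls. Otherwise the members' counts stayed within 22 to 31 rises and 13 to 17 falls over 2 pseudocounts (0.1 and 0.01), 3 scalings, a robust prior variance, the block and limma voom, the last chosen after seeing the data (31 and 17). A lower limit of 1 FPKM for members gave 27 and 15, and one of 5 FPKM 18 and 11. No scaling moved the median of all genes by over 0.1. The members' median of 0.07 was 0.0349 for members of at least 5 FPKM, and the cause was not tested. Of the 41 calls, 15 held under all 15 alternatives and 16 with each library left out.

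Same-numbered libraries did not deviate together (r = 0.0095, 0.055 and 0.020, and 1 of 3 haloperidol libraries correlated best with its own number). With 3 libraries per group, such correlations cannot show whether same-numbered libraries shared a day or a batch. The fit with the replicate number as a block gave 24 rises and 13 falls among members, and 1208 and 1344 over all genes.

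Among named members past the threshold, 365 of the values kept their call and 85 (in 18 genes) did not, none with a turned sign. Of named members that had not passed, 3 gained a call in 4 values: Zfp148 without haloperidol replicate 1 and with limma voom, Zfp445 without haloperidol replicate 3 and Zfp422 with limma voom. Signs turned 19 times, in 10 members that had not passed. With single libraries left out, their log2 fold changes ran from -0.0783 (without DMSO replicate 1) to 0.00659 (without DMSO replicate 3) for Zfp706, -0.15 (without DMSO replicate 2) to 0.0232 (without DMSO replicate 1) for Zkscan3, -0.0377 (without haloperidol replicate 1) to 0.167 (without haloperidol replicate 3) for Zscan12 and -0.048 (without DMSO replicate 2) to 0.0662 (without DMSO replicate 3) for Zscan21. They ran from -0.159 (without haloperidol replicate 3) to 0.0239 (without haloperidol replicate 2) for Zscan22, -0.205 (without haloperidol replicate 2) to 0.0218 (without haloperidol replicate 1) for Zscan29 and -0.0265 (without haloperidol replicate 3) to 0.147 (without haloperidol replicate 2) for Zfp131, and from -0.103 (without haloperidol replicate 2) to 0.0845 (without haloperidol replicate 3) for Zfp292, -0.151 (without DMSO replicate 3) to 0.0745 (without haloperidol replicate 3) for Zfp521 and -0.112 (without DMSO replicate 2) to 0.0932 (without DMSO replicate 1) for Zfp809. With a common sum Zscan21 was at -0.0104 and Zfp809 at -0.0142, and with quantile normalization Zfp292 was at 0.0123. Members near 2 FPKM rest on few reads, down to 19 in 1 library of Zfp934.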
